A study of Mus musculus with 6 samples.

Results

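The genes described here are the expressed members of one family of mouse testis clones, and they were followed in ID4-GFP+ spermatogonia with and without overexpression of ID4. Their names keep the RIKEN clone code, in the pattern of 1700001C19Rik. Members are the gene entries of the deposited table that carry such a name, that reach at least 1 FPKM (fragments scaled by transcript length and by the mapped total) in the higher of the 2 groups, and that do not lie on chromosome 15. The members were thus chosen by the FPKM of these same 2 groups. The rule found 141 members among 23355 gene entries, out of 357 entries with such a name. A further 203 lay below 1 FPKM in both groups, 39 of them listed at 0 in both, and 13 lay on chromosome 15, 5 of them at 1 FPKM or more.

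The study measured RNA by sequencing in 6 samples of mouse testis spermatogonia sorted for the ID4-GFP reporter, which all 6 carry: 3 from mice in which ID4 is constitutively overexpressed in germ cells and 3 from control mice. The sources used here do not give the promoter that drives the transgene, the strain, or the age of these animals. The deposited table holds 1 FPKM value per group, which the authors had already combined over the 3 samples, so the values given here have no replicate SD and no known sequencing depth, and the spread between samples enters only through the authors' own test. That test used Cuffdiff's table layout and gives a q-value per gene. A gene is called here at an authors' q of 0.05 or less; nothing in the sources states that the 3 samples of a group are separate animals, so the q-values measure the spread between these samples only. Id4 itself stood at 13.4 FPKM with overexpression and 6.37 FPKM in controls.

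RIKEN cloned and sequenced full-length mouse cDNAs library by library, and the digits that open a clone name record the library, here one made from adult mouse testis. An adult testis holds mostly spermatocytes and spermatids, the meiotic and haploid stages of sperm formation, whereas spermatogonia are the mitotic cells that come before them. Many clone genes of this kind therefore code for parts of the sperm head and tail, and many others are long non-coding RNAs (lncRNAs), which the testis makes in greater variety than most tissues. Some have since been given names. ID4 is an inhibitor of DNA binding that sequesters bHLH transcription factors, whose dimers bind the E-box CANNTG.

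Most members were scarce in these cells. The 141 values ran between 0.699 and 101 FPKM with overexpression and between 0 and 171 FPKM in controls, with medians of 2.19 and 1.73 FPKM. Over all entries that meet the same level and chromosome rule the median level was 9.23 FPKM with overexpression and 8.89 FPKM in controls. Over all tested genes it was 11.2 FPKM with overexpression and 10.9 FPKM in controls. Only 17 members reached 10 FPKM with overexpression and 18 did so in controls. The 5 most abundant members, named below, held 38.1% of the summed FPKM of all members with overexpression and 47.2% in controls.

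The threshold was met on one side far more often than on the other. In all, 87 members reached 1 FPKM in both groups, 50 reached it with overexpression alone, and 4 in controls alone. Those 50 had to be higher with overexpression, since the rule itself sets their direction. Over all entries outside chromosome 15 that meet the same level rule, 616 reached 1 FPKM with overexpression alone, 376 in controls alone and 10700 in both. Just inside the threshold lay 1700003H04Rik, at 1.01 FPKM with overexpression and 0.218 FPKM in controls, 1700001J11Rik at 1.02 and 0.327 FPKM, and 1700037C18Rik at 1.03 and 0.618 FPKM, in the same order of groups. Just outside it lay 1700047M11Rik, at 0.994 FPKM with overexpression and 0.205 FPKM in controls, 1700109H08Rik at 0.989 and 0.229 FPKM, and 1700042O10Rik at 0.224 and 0.959 FPKM. Of these 6 genes, 1700042O10Rik was the one with the higher level in controls.

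**Figure D1:**
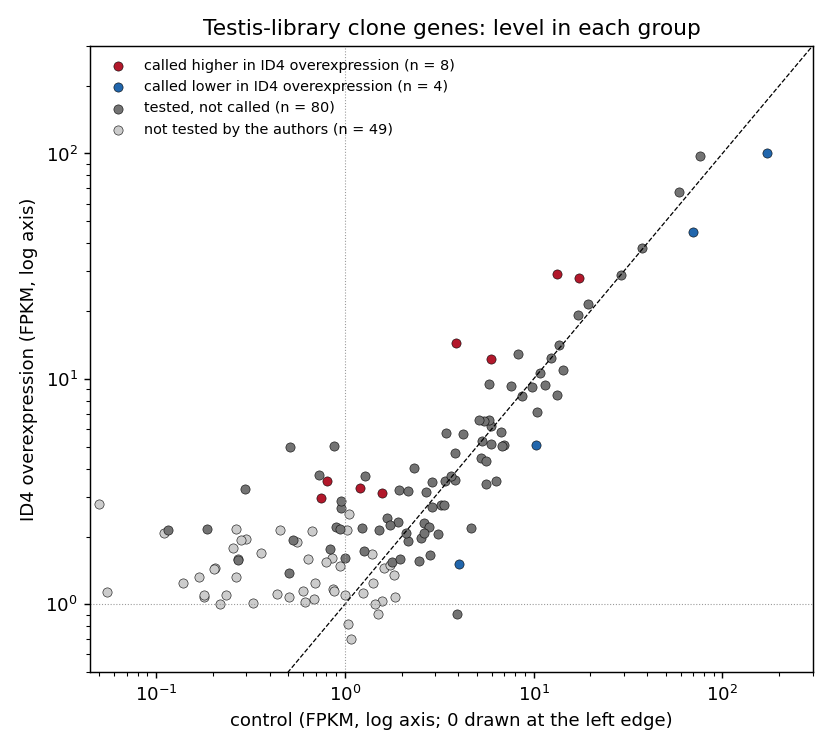
FPKM of each of the 141 clone genes with ID4 overexpression (vertical axis) against control (horizontal axis), both on log axes. Each point is 1 gene and the dashed line marks equal levels; the dotted lines mark 1 FPKM. Of the 9 genes at 20 FPKM or more, 1 is at least 2-fold higher and 0 at least 2-fold lower, although 2 were called higher and 2 lower. The 50 genes that reach 1 FPKM with overexpression alone lie above the line.

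Of the 141 members, 80 are protein-coding in RefSeq, 55 are lncRNAs, 5 are pseudogenes, and 1, 1700058G18Rik, carries a name that RefSeq lists for both Kcnmb4 and the opposite-strand gene Kcnmb4os1. RefSeq still lists 102 under the clone name, and 38 under a newer symbol. In GENCODE M21, which matched 137 members by name and place, the exons of a member covered a median of 1136 bases (339 to 8789) in 4 blocks. Coding members had a median of 6 exon blocks and 1371 exonic bases, and lncRNAs 3 blocks and 987.5 bases, and 13 members had a single block. Of the 137, 39 shared exon bases with another gene, for 22 of them over more than 10% of their exonic bases. The sources used here do not state whether strand was used in counting, so reads from such overlaps may belong to either gene. For 17 members the locus in the deposited table was over 5 times as long as the gene in GENCODE, so positions below are those of GENCODE on GRCm38, the build that the table's loci match.

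The authors tested 92 of the 141 members, and 12 of these were called: 8 higher and 4 lower with overexpression. That is 8.70% and 4.35% of the tested members. Over all 10990 tested genes, 9.59% were called higher and 7.42% lower. Among the tested entries that meet the same level and chromosome rule, 9.81% were called higher and 5.51% lower, 15.3% in all. Because the levels in these same 2 groups chose the members, nothing is read from these shares. The 12 called genes are described in turn.

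The largest difference among the called genes was in 1700034O15Rik, now Llcfc1, on chromosome 6 (chr6:41684431-41685717, plus strand). Llcfc1 encodes a sperm protein that mouse sperm need for fusion with the egg. It stood at 3.52 FPKM with overexpression and 0.804 FPKM in controls, 4.37-fold higher (authors' deposited table, q = 0.0427). The coding gene 1700029F12Rik (chr13:97021864-97034362, minus strand) stood at 2.97 FPKM with overexpression and 0.749 FPKM in controls, 3.97-fold higher, with q = 0.0302 in the authors' deposited table. Both genes were at 2.97 FPKM or more with overexpression and under 1 FPKM in controls.

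The lncRNA 1700027A15Rik (chr1:72984844-73025507, plus strand) spans, in GENCODE, the gene Tnp1 on the other strand (chr1:73015074-73015909), which encodes a transition protein that takes the place of histones in spermatid chromatin. It stood at 14.4 FPKM with overexpression and 3.87 FPKM in controls, 3.72-fold higher (authors' deposited table, q = 0.00792). Tnp1 stood at 70.4 FPKM with overexpression and 32.3 FPKM in controls, and was also called (authors' deposited table, q = 0.000835). The RefSeq start of 1700027A15Rik lies 127 bases from the start of Tnp1 on the other strand, and in GENCODE 2.87% of its exonic bases are also exon of Tnp1. Both genes of this pair were therefore higher with overexpression. How far reads of one were counted for the other was not tested.

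Next in size came 1700010I14Rik, a coding gene on chromosome 17 (chr17:8988333-9011949, plus strand). It stood at 3.30 FPKM with overexpression and 1.203 FPKM in controls, 2.74-fold higher (authors' deposited table, q = 0.00153). Ssmem1, listed as 1700025E21Rik (chr6:30509849-30520254, plus strand), encodes a serine-rich membrane protein of spermatids that mouse sperm need for a normal head. It stood at 3.13 FPKM with overexpression and 1.57 FPKM in controls, 2.001-fold higher, with q = 0.0439 in the authors' deposited table. Tmem209, whose start lies 66 bases away on the other strand, stood at 38.9 FPKM with overexpression and 30.2 FPKM in controls and was not called (authors' deposited table, q = 0.121).

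The other 3 genes called higher lie on the X chromosome. The gene 1700011M02Rik (chrX:102908905-102909651, plus strand), a lncRNA in RefSeq and coding in GENCODE, was among the more abundant members, at 29.3 FPKM with overexpression and 13.3 FPKM in controls, 2.20-fold higher (authors' deposited table, q = 0.00666). Its divergent neighbour Dmrtc1a, a DMRT-family gene whose start is 218 bases away, stood at 2.49 FPKM with overexpression and 1.71 FPKM in controls and was not called (authors' deposited table, q = 0.382). The coding gene 1700080O16Rik (chrX:51968695-51972772, minus strand) stood at 12.3 FPKM with overexpression and 5.91 FPKM in controls, 2.08-fold higher. Its q in the authors' deposited table was 0.000835, the smallest among the members. The X-linked lncRNA Tslrn1, listed as 1700019B21Rik (chrX:62510539-62527011, minus strand), stood at 28.1 FPKM with overexpression and 17.4 FPKM in controls, 1.62-fold higher (authors' deposited table, q = 0.0343).

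The 4 genes called lower included the most abundant member. The coding gene 1700037H04Rik (chr2:131146324-131160081, minus strand) stood at 101 FPKM with overexpression and 171 FPKM in controls, 1.70-fold lower (authors' deposited table, q = 0.0178). Its locus in the deposited table is far longer, chr2:131127412-131604824, and overlaps 12 other entries, so its FPKM may not be that of this gene alone, although its GENCODE exons share no bases with another gene. Without entries that overlap another, 3 members were called lower. The X-linked coding gene 1700013H16Rik (chrX:53742901-53757831, minus strand) stood at 45.1 FPKM with overexpression and 70.2 FPKM in controls, 1.56-fold lower (authors' deposited table, q = 0.00438). The other two are lncRNAs of chromosome 10. The lncRNA 1700012D01Rik (chr10:127667123-127668851 in the deposited table) stood at 5.11 FPKM with overexpression and 10.3 FPKM in controls, 2.02-fold lower, with q = 0.02215 in the authors' deposited table. The lncRNA 1700028I16Rik (chr10:82812123-82824242, plus strand) stood at 1.52 FPKM with overexpression and 4.03 FPKM in controls, 2.66-fold lower (authors' deposited table, q = 0.0181).

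**Figure D2:**
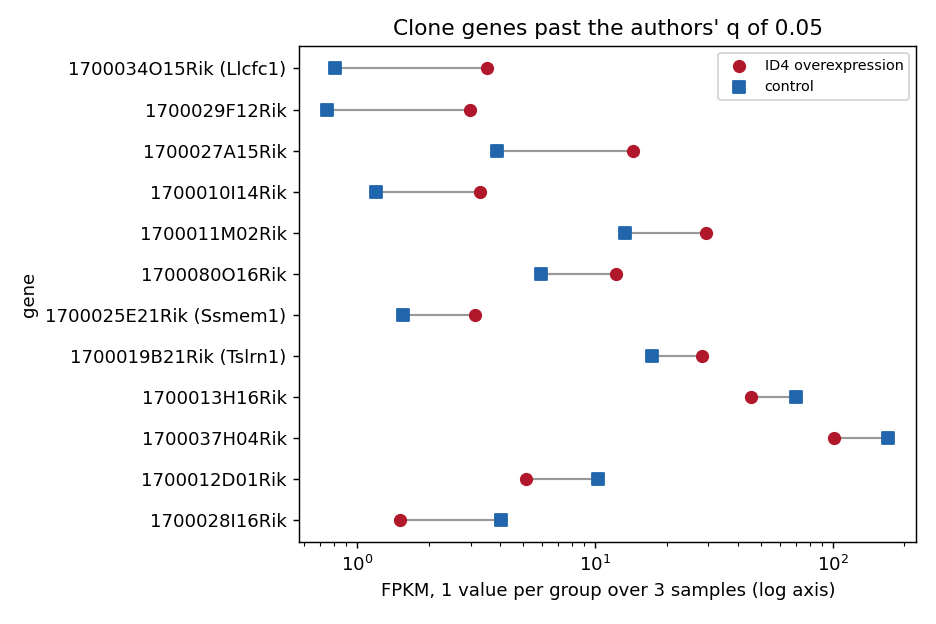
FPKM of the 12 called clone genes on a log axis, with ID4 overexpression as circles and control as squares, 1 value per group over 3 samples. The 8 genes called higher are above the 4 called lower, and the most abundant, 1700037H04Rik, is at 101 FPKM with overexpression and 171 FPKM in controls.

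Among the tested members that were not called, the largest ratios belonged to genes that were almost absent in controls. The coding gene 1700074P13Rik stood at 2.14 FPKM with overexpression and 0.115 FPKM in controls, a log2 ratio of 4.22 (authors' deposited table, q = 0.0704). Smim23, a small membrane protein gene listed as 1700008A04Rik, stood at 2.17 FPKM with overexpression and 0.187 FPKM in controls. The lncRNA 1700008K24Rik stood at 3.25 FPKM with overexpression and 0.298 FPKM in controls. These ratios, 18.6-fold, 11.6-fold and 10.9-fold in the order given, had q of 0.476 for Smim23 and 0.213 for 1700008K24Rik in the authors' deposited table, and at such low levels the size of a ratio is uncertain. The coding gene 1700042G07Rik, which shares 63.9% of its exonic bases with Gm49337 on the same strand, stood at 5.01 FPKM with overexpression and 0.514 FPKM in controls (authors' deposited table, q = 0.476). The pseudogene 1700019M22Rik stood at 5.06 FPKM with overexpression and 0.877 FPKM in controls (authors' deposited table, q = 0.0914).

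In the other direction the 5 most negative ratios among tested members not called were smaller in size. The lncRNA 1700064M15Rik stood at 0.905 FPKM with overexpression and 3.94 FPKM in controls, a log2 ratio of -2.12 (authors' deposited table, q = 0.0951). The lncRNA 1700105P06Rik, which shares 31.5% of its exonic bases with Spindoc on the other strand, stood at 2.17 FPKM with overexpression and 4.66 FPKM in controls. Cfap77, a microtubule inner protein of cilia and flagella listed as 1700101E01Rik, stood at 3.54 FPKM with overexpression and 6.30 FPKM in controls (authors' deposited table, q = 0.0796). The coding gene 1700001L19Rik stood at 1.65 FPKM with overexpression and 2.83 FPKM in controls, and the lncRNA 1700123M08Rik at 3.41 FPKM with overexpression and 5.60 FPKM in controls. The lncRNA 1700101O22Rik was the one member listed at 0 in a group: it stood at 2.78 FPKM with overexpression and was listed at 0 in controls, and the authors did not test it.

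Over all members, 90 had a log2 ratio above 0 and 50 below 0, with a median of 0.38. The median was 0.03 over all entries that meet the same level and chromosome rule. Tested members had a median of 0.17, and all tested genes 0.01. The excess lay among the scarce members. Of the 50 members between 1 and 2 FPKM, 37 were above 0 with a median of 0.95, although only 8 of them were tested and 0 were called. Of the 48 with a ratio between 2 and 5 FPKM, 32 were above 0, with a median of 0.52. Between 5 and 20 FPKM 15 of 33 were above 0, with a median of -0.0027, and of the 9 members at 20 FPKM or more, 6 were above 0, with a median of 0.14. Over all entries outside chromosome 15, the shares above 0 in these 4 classes of level were 53.8%, 54.6%, 53.3% and 52.2%. Among the 87 members at 1 FPKM or more in both groups, 41 were above 0 and 46 below, with a median of -0.0027. These counts use the values that chose the members and are given as a description.

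**Figure D3:**
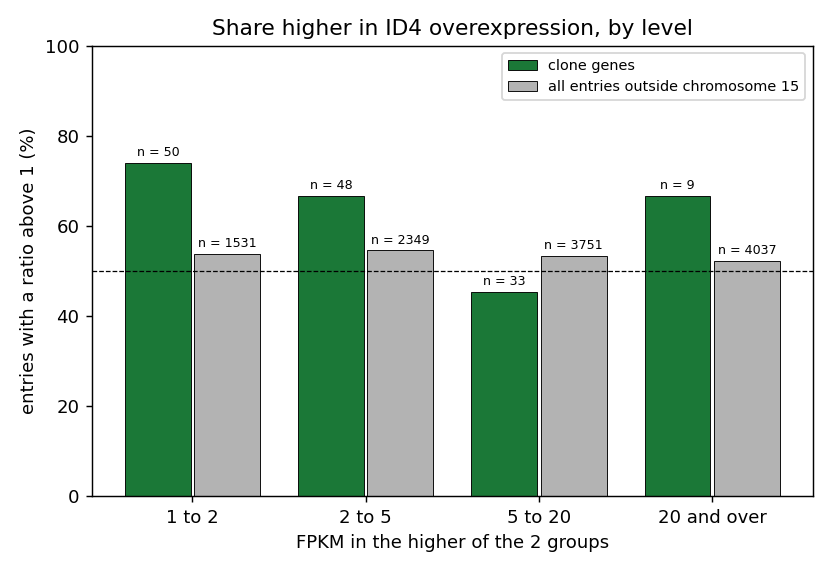
Percent of entries with a ratio of overexpression to control above 1, by FPKM in the higher of the 2 groups, for the clone genes (green bars) and for all entries outside chromosome 15 (grey bars); the number of entries with a ratio stands above each bar and the dashed line marks 50%. The clone genes reach 74.0% between 1 and 2 FPKM and 45.5% between 5 and 20 FPKM, while all entries stay between 52.2% and 54.6%.

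Coding members and lncRNAs had different medians. Of 80 coding members, 56 had a log2 ratio above 0, with a median of 0.52, and 30 were at least 2-fold higher while 0 were at least 2-fold lower. Of 54 lncRNAs with a ratio, 29 were above 0, with a median of 0.15; 14 were at least 2-fold higher and 4 at least 2-fold lower. Of 52 tested coding members 5 were called higher (9.62%) and 2 lower (3.85%). Of 37 tested lncRNAs 3 were called higher (8.11%) and 2 lower (5.41%). Over all tested entries under the same level and chromosome rule the shares were 9.81% and 5.51%, so nothing is read from these counts. These counts use the values that chose the members. Of all 48 members at least 2-fold higher, 40 reached 1 FPKM with overexpression alone, where the rule sets the direction. Among the 87 members at 1 FPKM or more in both groups, 8 were at least 2-fold higher and 3 at least 2-fold lower. The difference between the 2 kinds of gene was not tested.

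The members that have since been named for sperm, testis or meiotic structures mostly had the higher value with overexpression, at a median level of 2.19 FPKM with overexpression and 0.876 FPKM in controls. This group of 17 was put together by name, after the values were known. Most of the 17, Llcfc1 included, were under 1 FPKM in controls, so the level rule itself set their direction. Among those at 1 FPKM or more in both groups, Ssmem1, Tslrn1 and Spata45 (listed as 1700022P22Rik) were higher with overexpression. Spaca9, Cfap206, Majin and Cfap77 were lower. Of the 17, 13 had a log2 ratio above 0 and 11 were at least 2-fold higher, with a median of 1.29. Of these 17, 9 were tested, and the called genes were Llcfc1, Ssmem1 and Tslrn1, all higher. The remaining 21 members with a newer symbol had a median of 0.16, with 13 above 0, and 0 of 16 tested were called. Over all tested entries under the same level and chromosome rule, 9.81% were called higher and 5.51% lower. With so few tested genes, and a group chosen after the values were known, nothing is read from these counts.

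Among genes of the sperm head, H2bl1, a histone H2B variant of spermatids listed as 1700024P04Rik, stood at 3.74 FPKM with overexpression and 0.727 FPKM in controls and was not called (authors' deposited table, q = 0.216). H2ap, a histone H2A-like gene of the X chromosome listed as 1700054O13Rik, stood at 2.07 FPKM with overexpression and 0.111 FPKM in controls and was not tested. Spata46, needed in mouse for normal sperm head shape and listed as 1700015E13Rik, stood at 1.96 FPKM with overexpression and 0.298 FPKM in controls, again without a test. These genes belong to spermatids. Each was under 1 FPKM in controls and a member through its overexpression value alone, so the level rule set its direction. Spaca9, a protein of the acrosome and of sperm microtubules listed as 1700026L06Rik, was more abundant and nearly level, at 8.40 FPKM with overexpression and 8.67 FPKM in controls (authors' deposited table, q = 0.953). Its divergent neighbour Ak8, an adenylate kinase gene whose start is 437 bases away, stood at 8.52 FPKM with overexpression and 13.4 FPKM in controls and was called lower (authors' deposited table, q = 0.0224).

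The flagellum genes in this group took both directions. Those under 1 FPKM in controls were members through their overexpression value alone, so the level rule set their direction. Cfap126, also called Flattop and listed as 1700009P17Rik, stood at 1.93 FPKM with overexpression and 0.529 FPKM in controls (authors' deposited table, q = 0.0705). Cfap299, listed as 1700007G11Rik, stood at 2.19 FPKM with overexpression and 0.898 FPKM in controls (authors' deposited table, q = 0.186). Tex43, a protein of the sperm tail listed as 1700065I17Rik, stood at 1.69 FPKM with overexpression and 0.360 FPKM in controls and was not tested. Cfap206, a radial spoke protein listed as 1700003M02Rik, and Cfap77 had the lower value with overexpression: 1.44 and 3.54 FPKM, against 1.62 and 6.30 FPKM in controls. Majin, listed as 1700123I01Rik, belongs to meiosis, where its protein ties telomeres to the nuclear envelope; it stood at 5.04 FPKM with overexpression and 6.79 FPKM in controls (authors' deposited table, q = 0.264). None of these 6 genes was called.

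**Figure D4:**
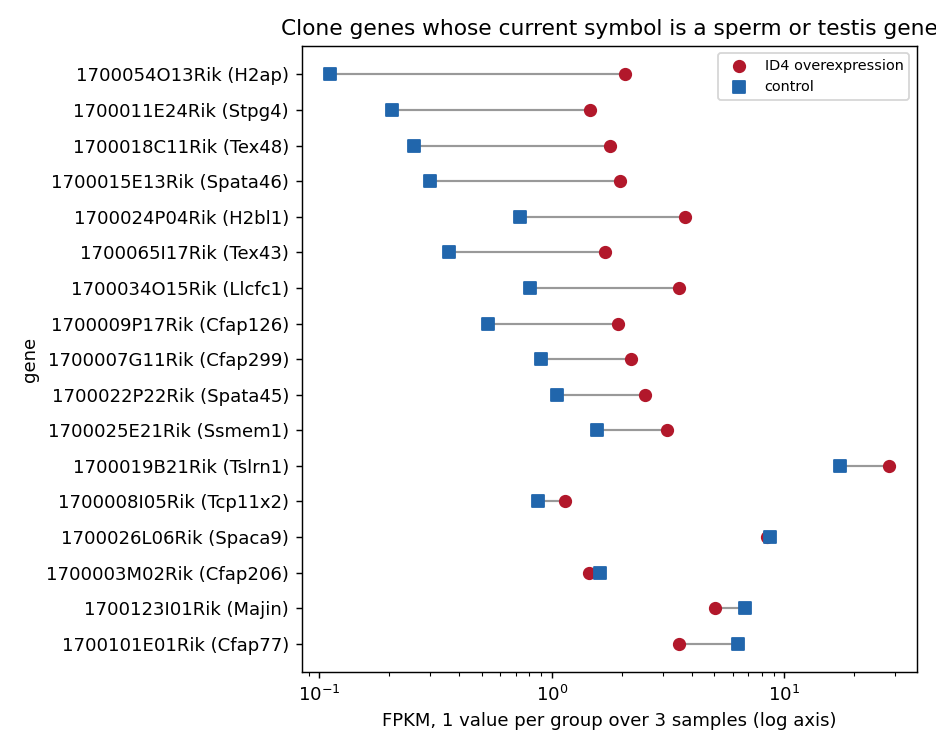
FPKM of the 17 clone genes whose current symbol is a sperm, testis or meiotic gene, on a log axis, with ID4 overexpression as circles and control as squares, 1 value per group over 3 samples. For 13 genes the overexpression value is the higher, and for those of them under 1 FPKM in controls the level rule set this direction. Spaca9, Cfap206, Majin and Cfap77 at the bottom have the higher value in controls.

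Markers of spermatids and of somatic testis cells were higher in the same comparison. Of 18 spermatid genes, 11 were tested and 8 called higher and 0 lower, and their summed level was 353 FPKM with overexpression and 92.7 FPKM in controls. Of 12 spermatocyte genes 2 were called higher and 2 lower (837 FPKM with overexpression, 895 FPKM in controls), and of 20 listed sperm tail and axoneme genes 18 were found and 9 tested, and 1 was called higher and 0 lower (98.1 FPKM with overexpression, 90.9 FPKM in controls). Macrophage genes were called higher in 12 of 13 tested (225 FPKM with overexpression, 58.8 FPKM in controls), Sertoli cell genes in 8 of 11 (273 and 84.1 FPKM), Leydig cell genes in 4 of 5 (73.0 and 26.2 FPKM) and fibroblast genes in 2 of 3 (45.9 and 18.6 FPKM), with 0 called lower in each list. Peritubular and endothelial markers were at 2.9997 and 3.65 FPKM with overexpression and 3.19 and 2.16 FPKM in controls in sum, and 0 of them were tested. No marker on these lists stood at 0 in either group, and the lists were written with earlier results of these data known. The part of spermatid or somatic RNA in the values of the clone genes was not tested. In such bulk samples fewer cells of a type and less RNA per cell cannot be told apart.

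The germ cell lists moved in different directions. Pan germ cell genes, at 1743 FPKM with overexpression and 1890 FPKM in controls in sum, had 0 of 7 called higher and 1 lower, so germ cell transcripts were abundant in both groups. Stem cell genes were called higher in 11 of 11 tested (411 FPKM with overexpression, 197 FPKM in controls). That list and its count include Id4, the overexpressed gene itself, whose direction follows from the design. Undifferentiated spermatogonia genes were called lower in 3 of 9 (753 and 993 FPKM), and differentiating spermatogonia genes lower in 8 of 9 (492.97 and 1040 FPKM).

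Of the 5 most abundant members, 3 were not called. Mtres1, a factor of mitochondrial transcription listed as 1700021F05Rik, stood at 97.6 FPKM with overexpression and 75.8 FPKM in controls (authors' deposited table, q = 0.151). Oip5os1, the lncRNA also known as Cyrano, which in mouse brings about the decay of the microRNA miR-7, is listed as 1700020I14Rik and stood at 67.7 FPKM with overexpression and 58.7 FPKM in controls (authors' deposited table, q = 0.473). Oip5, the kinetochore gene it is named after, stood at 14.7 FPKM with overexpression and 14.5 FPKM in controls. The coding gene 1700123O20Rik stood at 38.005 FPKM with overexpression and 37.7 FPKM in controls (authors' deposited table, q = 0.978). It shares 23.9% of its exonic bases with Acin1 on the other strand, which stood at 12.8 FPKM with overexpression and 9.10 FPKM in controls. Armt1, a protein carboxyl methyltransferase gene listed as 1700052N19Rik, stood at 21.5 FPKM with overexpression and 19.5 FPKM in controls, and Rubcn, a negative regulator of autophagy listed as 1700021K19Rik, at 9.35 FPKM with overexpression and 11.4 FPKM in controls.

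Several lncRNAs are named for a coding gene on the other strand. Rab10os, listed as 1700012B15Rik, stood at 14.1 FPKM with overexpression and 13.6 FPKM in controls, and Rab10, a small GTPase of vesicle traffic, at 17.4 FPKM with overexpression and 15.7 FPKM in controls. Sp3os, listed as 1700011J10Rik, stood at 9.18 FPKM with overexpression and 9.79 FPKM in controls, and the zinc finger factor gene Sp3 at 10.6 FPKM with overexpression and 10.2 FPKM in controls. Med9os, listed as 1700013G23Rik, stood at 4.48 FPKM with overexpression and 5.24 FPKM in controls, and Med9, a Mediator subunit gene, at 3.01 FPKM with overexpression and 3.56 FPKM in controls. None of these 6 genes was called. The exonic bases shared with the partner were 2.33% for Rab10os and 12.2% for Sp3os. The gene 1700071M16Rik shares 11.1% of its exonic bases with Pla2g7, a phospholipase gene, on the other strand; it stood at 2.87 FPKM with overexpression and 0.959 FPKM in controls and was not called, while Pla2g7 stood at 103 FPKM with overexpression and 42.4 FPKM in controls and was called (authors' deposited table, q = 0.000835).

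By GENCODE starts, 25 members start within 1000 bases of the start of a coding gene on the other strand, and for 22 of them the partner was found by name in the deposited table. The partner was the more abundant gene in both groups in 15 of the 22 pairs. The median level was 3.90 FPKM with overexpression and 5.28 FPKM in controls for the members, and 13.9 FPKM with overexpression and 14.7 FPKM in controls for the partners. The log2 ratios of the 2 genes lay on the same side of 0 in 13 of 22 pairs, and Pearson's r across these pairs was 0.15, a description over genes of the same libraries. Ak8 was the only called partner among these 22; Tnp1, also called, is not among them, because its pairing with 1700027A15Rik rests on the RefSeq start.

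A promoter window was available in RefSeq (GRCm38.p6) for 111 of the 141 members, as 300 bases that begin 250 bases before the start of the gene; the first listed window was used. For the called genes with the 3 largest and the 3 smallest ratios the windows are given here, because ID4 acts on factors that bind E-boxes and because the 2 groups of windows differ in base composition. Each is written 5′ to 3′ with every E-box CANNTG (searched on both strands) in capitals.
Llcfc1, chr6:41684181-41684480, plus strand: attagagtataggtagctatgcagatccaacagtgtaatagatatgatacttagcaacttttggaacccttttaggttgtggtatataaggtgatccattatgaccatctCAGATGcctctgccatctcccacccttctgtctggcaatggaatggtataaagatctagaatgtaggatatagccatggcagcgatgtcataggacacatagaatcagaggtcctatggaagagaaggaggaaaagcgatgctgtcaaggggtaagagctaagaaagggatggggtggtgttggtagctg
1700029F12Rik, chr13:97034313-97034612, minus strand: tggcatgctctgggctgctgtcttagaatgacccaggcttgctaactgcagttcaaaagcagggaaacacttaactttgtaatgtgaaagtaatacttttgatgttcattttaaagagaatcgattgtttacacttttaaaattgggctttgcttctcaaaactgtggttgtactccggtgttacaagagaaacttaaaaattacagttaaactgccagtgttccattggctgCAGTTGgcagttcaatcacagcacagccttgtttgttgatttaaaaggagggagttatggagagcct
1700027A15Rik, chr1:73015786-73016085, plus strand: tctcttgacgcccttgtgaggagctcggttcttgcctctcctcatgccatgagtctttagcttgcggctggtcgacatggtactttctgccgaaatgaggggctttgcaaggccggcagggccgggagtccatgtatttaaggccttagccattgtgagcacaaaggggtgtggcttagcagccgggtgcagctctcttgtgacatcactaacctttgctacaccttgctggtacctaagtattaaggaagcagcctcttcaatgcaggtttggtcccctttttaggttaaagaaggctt
1700028I16Rik, chr10:82811873-82812172, plus strand: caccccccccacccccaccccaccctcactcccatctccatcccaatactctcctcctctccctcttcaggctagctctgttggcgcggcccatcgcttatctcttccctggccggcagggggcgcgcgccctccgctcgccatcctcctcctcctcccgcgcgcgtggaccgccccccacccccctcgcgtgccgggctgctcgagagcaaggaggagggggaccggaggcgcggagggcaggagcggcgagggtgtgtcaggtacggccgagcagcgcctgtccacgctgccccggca
1700012D01Rik, chr10:127666873-127667172, plus strand: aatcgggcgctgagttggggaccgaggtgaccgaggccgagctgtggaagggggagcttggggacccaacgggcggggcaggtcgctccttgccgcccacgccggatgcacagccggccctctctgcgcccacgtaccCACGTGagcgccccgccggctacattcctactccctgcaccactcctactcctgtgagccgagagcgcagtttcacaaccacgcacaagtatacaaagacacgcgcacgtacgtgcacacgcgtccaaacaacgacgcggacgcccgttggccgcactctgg
1700037H04Rik, chr2:131160032-131160331, minus strand: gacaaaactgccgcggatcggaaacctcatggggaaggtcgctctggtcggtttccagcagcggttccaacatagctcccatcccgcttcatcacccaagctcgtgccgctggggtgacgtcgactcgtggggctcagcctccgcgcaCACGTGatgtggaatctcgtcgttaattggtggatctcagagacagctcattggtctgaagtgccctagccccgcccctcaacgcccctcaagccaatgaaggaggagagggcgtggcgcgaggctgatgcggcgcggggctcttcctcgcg

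The first 3 windows belong to genes called higher and the last 3 to genes called lower. Llcfc1 has 1 E-box, CAGATG, and 1 match to TATAAA, in a window of 43.7% GC. The window of 1700029F12Rik has 1 E-box, CAGTTG, and is 39.7% GC. The window of 1700027A15Rik has no E-box and is 52.0% GC, and 124 of its bases lie inside Tnp1. The 3 windows of genes called lower have more GC: 72.7% for 1700028I16Rik, with no E-box, 66.3% for 1700012D01Rik and 62.3% for 1700037H04Rik. The last 2 of these hold 1 E-box each, CACGTG. Over all called genes with a window, the median was 52.0% GC for the 7 called higher and 64.3% for the 4 called lower. The 2 directions overlapped: Ssmem1, called higher, is 61.7% GC, and 1700013H16Rik, called lower, is 58.0% GC.

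The motif shares of the members are set beside those of all 27018 promoter windows, whatever the expression of their genes, and without a test. The E-box CANNTG was found in 84 of 111 members (75.7%) and in 72.2% of all windows, and its form CACGTG in 14 members (12.6%) and 7.24% of all windows. CAGCTG and CAGGTG, also forms of CANNTG, were found in 12 (10.8%) and 24 members (21.6%), against 16.1% and 20.03% of all windows. The cyclic AMP response element TGACGTCA was found in 2 members (1.80%) and 1.88% of all windows, and TATAAA in 11 members (9.91%) and 14.2%. Of the 7 genes called higher that have a window, 6 hold CANNTG and 0 hold CACGTG; of the 4 called lower, 2 hold it, both as CACGTG. A match is a run of letters and not a shown binding site.

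Members with and without a CpG-rich window lay mostly on different sides of 0. A window is called CpG-rich here if its observed over expected CG ratio is above 0.6 and its GC content above 50%; this split was made after the values were seen, and the rule that chose the members fixes the direction of the 50 that reached 1 FPKM with overexpression alone, so the counts are a description. Of 34 members with a CpG-rich window, 12 had a log2 ratio above 0, with a median of -0.22. Of 76 members with another window and a ratio, 59 were above 0, with a median of 0.70. In the CpG-rich group 1 of 28 tested members was called higher (Ssmem1) and 3 lower (1700028I16Rik, 1700012D01Rik and 1700037H04Rik); in the other group 6 of 46 were called higher (13.0%) and 1 lower (1700013H16Rik). Among entries under the same rule that were matched to a window by symbol, 6.80% of those tested with a CpG-rich window were called higher and 5.42% lower. For those with another window the shares were 15.7% and 6.26%.

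Among the members at 1 FPKM or more in both groups, a restriction added after the data were seen, 9 of 28 with a CpG-rich window were above 0 (median -0.22) and 25 of 41 with another window (median 0.21). Among all members under 5 FPKM, where those that reached 1 FPKM with overexpression alone mostly lie, 8 of 19 with a CpG-rich window were above 0 (median -0.19) and 47 of 58 with another window (median 1.03). At 5 FPKM or more the counts were 4 of 15 (median -0.23) and 12 of 18 (median 0.25). All 8790 entries that meet the same level and chromosome rule and have a window gave the following: 50.3% of those with a CpG-rich window were above 0 (median 0.0033) and 58.8% of those with another window (median 0.11). CpG-rich windows made up 30.6% of those of the members, 69.3% of those of the 8790 entries, and 33.9% of all windows whatever their expression. The difference between the members and all entries was not tested.

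**Figure D5:**
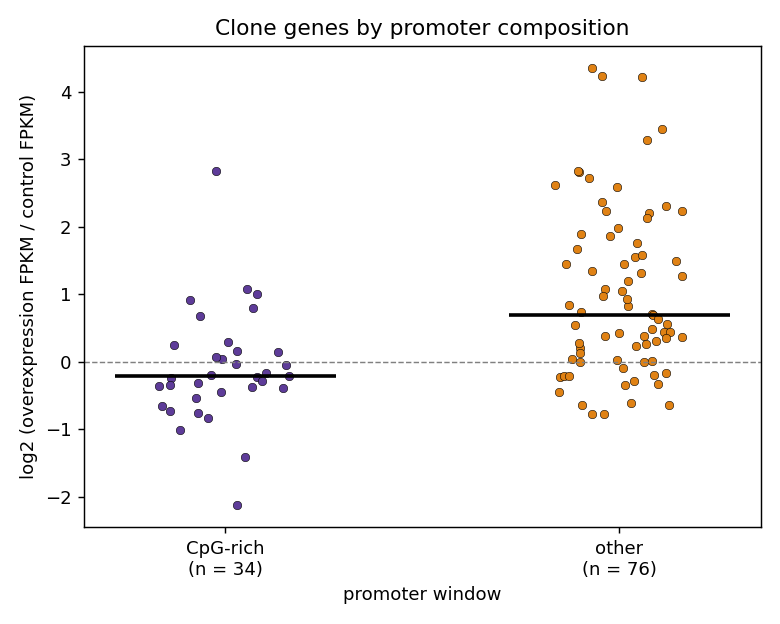
Log2 ratio of overexpression FPKM to control FPKM for the clone genes with a promoter window and a ratio, split by whether the window is CpG-rich; each point is 1 gene, spread sideways at random, and the bar is the median. The median is -0.22 for the 34 genes with a CpG-rich window and 0.70 for the 76 others.

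Chromosomes 1 and 2 held the most members, 11 each, which is 1.66% and 1.12% of their entries under the same level rule. The largest such share was 1.87%, on chromosome 12. The X chromosome holds 9 members, of which 6 were tested; 3 were called higher and 1 lower, and 8 of the 9 had a log2 ratio above 0, with a median of 0.69. Over all entries of the X chromosome that meet the same level rule, 14.2% of those tested were called higher and 5.17% lower, and the median was 0.15. The gene 1700018G05Rik, also X-linked, stood at 2.12 FPKM with overexpression and 0.668 FPKM in controls, without a test by the authors. The autosomal members had a median of 0.30, with 5 called higher (5.81%) and 3 lower (3.49%) of 86 tested. Over all tested entries under the same level and chromosome rule, X-linked ones included, 9.81% were called higher and 5.51% lower. The difference between X-linked and autosomal members was not tested.

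Clone genes of the other RIKEN adult testis libraries, with names such as 4930470H14Rik and 4933402E13Rik, are the most similar group. Of these, 98 meet the same level and chromosome rule. Their median log2 ratio was 0.07, with 55 above 0, and of 76 tested 5 were called higher and 7 lower. In this group 14 genes reached 1 FPKM with overexpression alone and 4 in controls alone, against 50 and 4 among the members. The largest ratio among its called genes was in 4930503B20Rik, which shares exon bases with Samd13 and Gm16325, at 2.78 FPKM with overexpression and 0.692 FPKM in controls (authors' deposited table, q = 0.0168). A further 435 RIKEN clone genes of other series had a median of -0.02, with 27 called higher and 15 lower of 386 tested. The differences between these groups and the members were not tested.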

How the data were processed

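Total RNA of 6 samples was isolated by Trizol, followed by oligo d(T)-primed library synthesis, per the labels' protocols. Per the submitters' processing notes, which give no versions, TopHat and Cufflinks were used with mm9, while the loci of the table match GRCm38. The authors deposited FPKM values, 1 per group over its 3 samples, with p-values and q-values of their own comparison; library scaling and the use of strand are not given in the sources used here. Their q-values differed from a Benjamini-Hochberg adjustment of their p-values over the 10990 tested entries by at most 4.77e-05. The table has 23355 entries and 1 emptied line.

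Ratios were recomputed as overexpression over control FPKM, on a log2 scale, with no pseudocount, in Python 3.11.15 with pandas 2.3.3. No model was fitted. Members were annotated by name and overlap from GENCODE M21 and RefSeq (GRCm38.p6), which also gave the promoter windows. Named genes are all called members, the 5 most abundant, the 5 most positive and 5 most negative ratios among tested members not called, members at 0 and those at the threshold; other genes were named after their values were seen. Counting and motif code was tested on simulated data. The members and lists were chosen with earlier results of these data known.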

Additional observations from a re-analysis of the deposited data

How the results depend on the processing

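The numbers of members called depended on the threshold. At an authors' q of 0.01 the members called higher were 4 and lower 1, and at 0.1 they were 13 and 7, against 8 and 4. With a log2 ratio of at least 1, 2 were lower, with chromosome 15 kept 7 were lower, and at 5 FPKM or more 4 were higher. For the other testis clone genes, with 5 higher and 7 lower, the counts were 1 and 1 at q of 0.01, 2 and 3 at 5 FPKM or more, 2 lower with a log2 ratio of at least 1, and 3 higher without overlapping entries. The median log2 ratio of members, 0.38, was 0.27 and 0.37 with pseudocounts of 1 and 0.1 FPKM, 0.37 after the median of all tested genes was subtracted, 0.52 with no level filter, 0.19 at 2 FPKM or more, 0.0061 at 5 FPKM or more, 0.37 with chromosome 15 kept, 0.17 for tested members and 0.44 without overlapping entries. Members above 0 were 166 with no level filter, 53 at 2 FPKM or more, 21 at 5 FPKM or more and 53 among tested members, against 90; these settings change how many genes enter.

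No paired analysis was possible because the table holds 1 value per group. For the same reason leaving out a sample and a test with another tool were not run, and the depth that limits the scarce members is unknown.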

Other observations

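Below the threshold of 1 FPKM the 203 clone genes outside chromosome 15 were not tested by the authors, and 94 of them were above 0 in both groups. Of these 94, 76 had the higher value with overexpression and 18 in controls, with a median log2 ratio of 0.82. The median level of the 203 was 0.156 FPKM with overexpression and 0.0575 FPKM in controls. On chromosome 15, 5 clone genes reached 1 FPKM, of which 0 were called higher and 3 lower. Lower calls were frequent among the entries that the level and chromosome rule leaves out. All 10990 tested entries held 1054 higher and 815 lower calls, and the 10577 that meet the rule held 1038 and 583. Nothing is therefore read from the 3 lower calls.

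Members that share exon bases with another gene and members that share none had medians on different sides of 0. Of 39 that share bases, 16 had a log2 ratio above 0, with a median of -0.09, and 1 of 29 tested was called (1700027A15Rik, higher). Of 97 with a ratio that share none, 71 were above 0, with a median of 0.71, and of 60 tested 7 were called higher and 3 lower. This split was made after the values were seen, uses values that chose the members, and was not tested. Over all tested entries under the same level and chromosome rule, 9.81% were called higher and 5.51% lower. All entries were not split in this way, so nothing is read from these counts.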
